A study of Mus musculus and Homo sapiens with 30 samples.

Results

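E0771 cells, an established mouse mammary cancer line, were exposed to the secretome of lean inguinal adipocytes and compared with the same cells kept in standard growth medium. Of the 13813 genes with enough counts to be tested in this line, 7770 differed between these 2 media. All tested genes were described; the comparison rests on 6 of the 18 mouse libraries, 3 with lean secretome and 3 in control medium, of 30 libraries in the series. The lean group received a mixture of 50% lean inguinal adipocyte secretome and 50% growth medium for 16 hours, after 36 hours of growth in DMEM with FBS; the control group received growth medium without secretome. Another group of 3 E0771 libraries received the obese inguinal adipocyte secretome in the same proportion, and 9 libraries of NMuMG, a mouse mammary epithelial line grown with added insulin and glucose, had the same 3 media. The series also holds human SkBr3 cells, which were not analysed here. The labels name no species, strain or sex for the adipocyte donors and give no genetic change in any group. They also do not say whether replicates were separate cultures, so the p-values measure a spread between libraries of the same medium that may be technical. For E0771 that spread was estimated over all 9 libraries of the line, the 3 with obese secretome included. The control medium held no secretome of any kind, so an effect of lean adipocytes and an effect of conditioned medium as such cannot be told apart in this comparison.

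The title of the series names an adipocyte oxylipin and ferroptosis, the death of cells through iron-dependent peroxidation of their membrane lipids. Cells resist it with glutathione, which the peroxidase Gpx4 uses to reduce lipid peroxides, and with NRF2 (encoded by Nfe2l2), a transcription factor that is held down by Keap1 and, when electrophiles or oxidants modify Keap1, switches on genes for glutathione synthesis, quinone reduction, thioredoxin recycling, heme breakdown and iron storage. A second factor, ATF4, answers shortage of amino acids and endoplasmic reticulum stress by raising amino acid synthesis, transport and tRNA charging. PPAR factors sense fatty acids and oxylipins and raise genes of fatty acid use, whereas SREBP factors raise fatty acid and cholesterol synthesis when membrane lipids are scarce. The gene lists used here follow these pathways and the growth and tissue programmes of the cells.

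The 6 libraries held between 22929035 and 31094119 counts assigned to genes, so a gene at 3 counts, the floor used here, lies near the limit of detection. Expression is given in CPM (read counts scaled to a common library size with TMM factors). Changes are log2 fold changes of lean over control. Their standard errors (SE) are the size of the change divided by the square root of the F statistic of the edgeR quasi-likelihood test. A gene is said to rise or fall where its Benjamini-Hochberg adjusted p over all tested genes was under 0.05. The sign ± marks the SD over 3 libraries. Most defining epithelial transcripts were at or near 0 in this line. Of 12 epithelial markers, 6 had at most 3 counts in each library. These included Krt19, Cldn3, Cldn7 and Esrp1, with 0 counts in all 6 libraries. Cdh1 had 2 to 8 counts, and Krt7, Cldn4 and Krt5 had at most 5, 4 and 8. Krt14 had 3 to 5 counts in control and 18 to 52 in lean libraries. Krt8 was the abundant one, with 5917 to 7657 counts. Some genes typical of fibroblasts and adipose stroma were expressed. The 11 markers of this list summed to 993 to 1100 CPM in the control and 441 to 466 CPM in the lean libraries, with Col1a1, Col3a1, Pdgfra and Pdgfrb the highest in counts. Others of the list were absent or nearly so: Fap had 0 counts in all 6 libraries, and Dcn, Lum and Thy1 had at most 3 in each. Adipoq, Lep, Cidec, Car3, Adrb3 and Pck1, which define adipocytes, had 0 counts in all 6 libraries; the summed level of the 13 adipocyte markers, 30.8 to 37.4 CPM in control and 64.7 to 67 CPM in lean libraries, was carried by Acsl1. Macrophage markers summed to 5 to 7.34 CPM and 7.04 to 7.58 CPM, lymphocyte markers to 0.262 to 0.41 CPM and 0.399 to 0.716 CPM, and endothelial markers to 48.2 to 55.8 CPM and 36.4 to 43.3 CPM, in control and lean libraries.

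The response was broad and mostly of small size. Of the 13813 tested genes, 56.3% were called, 3768 higher (27.3%) and 4002 lower (29.0%) with the lean secretome. The counts of called members given below for each gene list in E0771 stand beside these shares of 27.3% and 29.0%. The median change over all tested genes was -0.01 on the log2 scale and the median size of a called change was 0.38. Changes of at least 1 on the log2 scale were called for 396 genes upward and 493 downward, and changes of at least 2 for 90 and 52 genes. In 8480 genes (61.4%) the 3 lean libraries lay wholly above or wholly below the 3 control libraries, and 7446 of these were also called. Calls depended on abundance: with the tested genes in 3 equal classes of mean expression, 33.3% of the lowest class were called, 63.9% of the middle one and 71.6% of the highest. The plot of change against mean level shows both arms of the response along the whole range of expression.

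**Figure D1:**
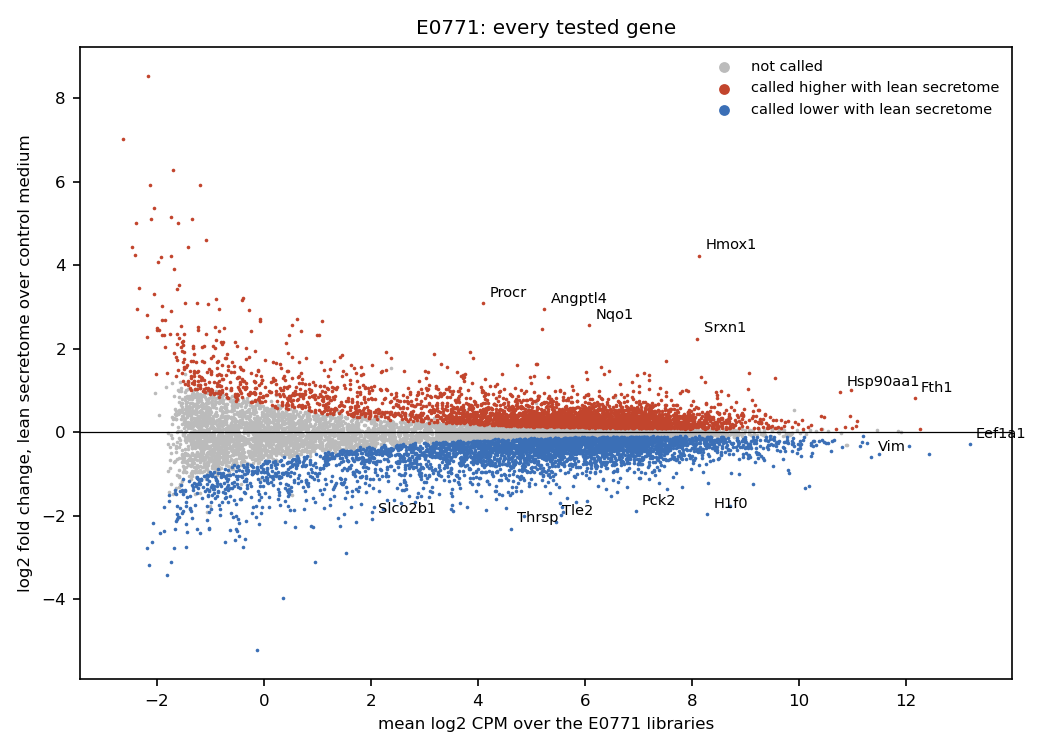
Log2 fold change of lean secretome over control medium (vertical axis) against mean log2 CPM over the E0771 libraries (horizontal axis), one point per tested gene; red points were called higher (3768 genes), blue points called lower (4002) and grey points not called. Hmox1, at a log2 fold change of 4.23, stands above the other abundant genes.

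The largest increases among genes of at least moderate expression (mean log2 CPM of 2 or more) were led by stress and electrophile response genes. Hmox1, heme oxygenase, which splits heme into iron, carbon monoxide and biliverdin, measured 82.6, 86.6 and 94.1 CPM in the control libraries and 1379, 1339 and 2232 CPM in the lean libraries. All lean libraries lay far above the control libraries, and lean replicate 3 was the highest (log2 fold change 4.23, SE 0.396, adjusted p = 0.000114). Procr, the endothelial protein C receptor, measured 9.19, 7.31 and 6.79 CPM in the control libraries and 60.9, 54.9 and 83.6 CPM in the lean libraries, again without overlap and with the highest value in lean replicate 3 (log2 fold change 3.09, SE 0.314, adjusted p = 0.000174). Angptl4, a secreted inhibitor of lipoprotein lipase and a PPAR target, measured 16.8, 16.6 and 18.1 CPM in the control libraries and 132, 136 and 131 CPM in the lean libraries (log2 fold change 2.96, SE 0.161, adjusted p = 2.62e-06). The 3 lean values of Angptl4 were nearly equal, unlike those of Hmox1 and Procr. Nqo1, which reduces quinones, rose from 29.9 ± 0.653 to 178 ± 5.21 CPM (log2 fold change 2.58, SE 0.4, adjusted p = 0.00156), and Srxn1, which restores oxidised peroxiredoxins, from 145 ± 1.86 to 689 ± 46.9 CPM (log2 fold change 2.25, SE 0.219, adjusted p = 0.000141). Adm, the peptide hormone adrenomedullin, rose by 2.49 on the log2 scale, Gbe1, the glycogen branching enzyme, by 1.93, Aif1l by 1.88, the adhesion receptor gene Adgra1 by 1.92, and the stress factor Atf3 by 1.79. In each of these 10 genes every lean library was above every control library, which was a condition of their choice.

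The largest decreases, by the same rule, included lipid, clock and chromatin genes. Thrsp, a nuclear protein that promotes fatty acid synthesis, measured 32.9, 39.9 and 43 CPM in the control libraries and 8.25, 8.22 and 6.99 CPM in the lean libraries (log2 fold change -2.30, SE 0.136, adjusted p = 5.22e-08). Tle2, a Groucho-type corepressor, measured 89.8, 70.4 and 78.6 CPM in the control libraries and 17.3, 19.1 and 17.9 CPM in the lean libraries (log2 fold change -2.14, SE 0.0943, adjusted p = 2e-10). Slco2b1, an organic anion uptake transporter, fell from 6.61 ± 0.804 to 1.56 ± 0.226 CPM. The groups did not overlap for any of these 3 genes, as the rule required. H1f0, the linker histone of resting and differentiated cells, fell from 506 ± 20.0 to 129.8 ± 24.1 CPM (log2 fold change -1.97, SE 0.157, adjusted p = 4.83e-05), and Pck2, the mitochondrial phosphoenolpyruvate carboxykinase, from 199.6 ± 10.0 to 54 ± 3.89 CPM (log2 fold change -1.89, SE 0.0783, adjusted p = 9.17e-10). Other large decreases were those of Sept4 (48.1 ± 2.14 to 12.1 ± 1.38 CPM), Selenbp1, a selenium-binding methanethiol oxidase (-1.98), the clock output factor Dbp (-1.90) and the kinesin gene Kif26a (-1.89). For H1f0, Selenbp1, Sept4 and Dbp, lean replicate 3 was the lowest library.

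**Figure D2:**
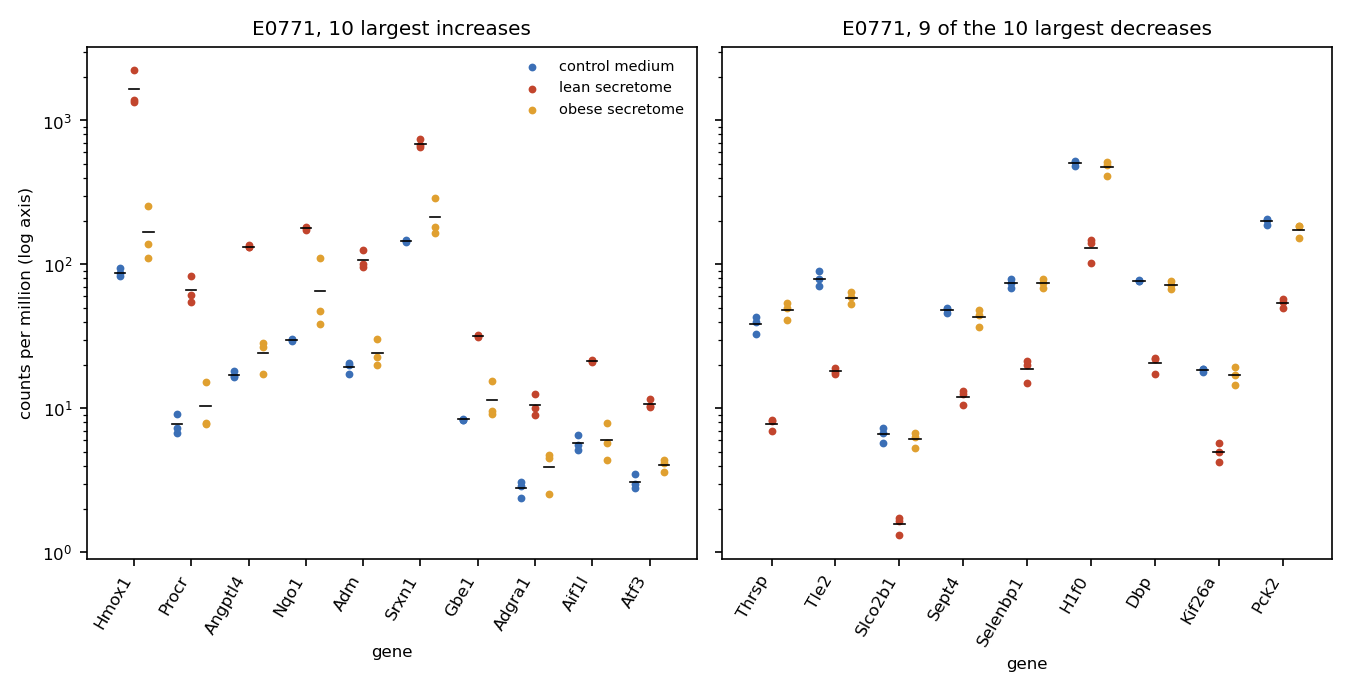
CPM on a log axis for the 10 largest increases (left) and 9 of the 10 largest decreases (right), one point per library and a bar at the mean of 3, with control medium in blue, lean secretome in red and obese secretome in yellow. In every gene the red points lie wholly above or wholly below the blue ones, as the choice of genes required. Hmox1 runs from 82.6 CPM in control replicate 1 to 2232 CPM in lean replicate 3.

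By absolute gain in CPM the leading genes were the ferritin heavy chain Fth1, which rose from 3537 ± 114 to 6231 ± 61.1 CPM, Hmox1, the ferritin light chain Ftl1 (1409 ± 81.1 to 2854 ± 52.5 CPM), the cytosolic chaperone gene Hsp90aa1 and the autophagy receptor gene Sqstm1 (521 ± 19.8 to 1294 ± 228 CPM). The leading losses were the mitochondrially encoded mt-Co1, which fell from 7119 ± 893 to 4960.2 ± 198 CPM, the translation elongation factor Eef1a1 (9907 ± 424 to 8162 ± 157 CPM), mt-Cytb (3732 ± 466 to 2629 ± 111 CPM), the intermediate filament gene Vim (3039.8 ± 65.4 to 2018 ± 123 CPM) and ENSMUSG00000095041 (1628 ± 157 to 666 ± 19.5 CPM), which the name table does not pair with a symbol. Each of these comparisons was free of overlap between the groups.

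NRF2 target genes rose almost as a whole. Of 34 tested members 32 rose and 1 fell, against 27.3% and 29.0% over all tested genes, with a median of 0.96 on the log2 scale; when obese replicate 1 was left out of the fit, 2 fell. The largest changes after Hmox1 were those of the aldehyde dehydrogenase gene Aldh3a1, which rose from 0.376 ± 0.0554 to 2.5 ± 0.0385 CPM, of Nqo1 and of Srxn1. Gclm, the modifier subunit of the enzyme that starts glutathione synthesis, measured 117, 114 and 116 CPM in the control libraries and 376, 356 and 402 CPM in the lean libraries (log2 fold change 1.71, SE 0.163, adjusted p = 0.000123). Txnrd1, thioredoxin reductase, measured 267, 283 and 287 CPM in the control libraries and 542, 548 and 565 CPM in the lean libraries (log2 fold change 0.98, SE 0.106, adjusted p = 0.000141), a rise shared evenly by its 3 lean libraries. Osgin1 rose by 1.63, Esd by 1.43, the drug exporter Abcc4 by 1.37 and the NADPH-producing enzymes Me1, Pgd and G6pdx by 0.99, 0.76 and 0.65. Ugdh, which makes UDP-glucuronate, was the member that fell (-0.51), and Tkt, transketolase, did not pass the test (-0.10, SE 0.0475, adjusted p = 0.0914). Nfe2l2 itself was higher by 0.17 (SE 0.0601, adjusted p = 0.0185).

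NRF2 binds the antioxidant response element, searched here as its core TGACNNNGC on both strands in the 250 bases before each transcription start of the RefSeq promoter table (GRCm38.p6, a build other than the GRCm39 named in the submitters' processing notes). It occurs in 10.2% of 32851 windows and in 14.0% of the 9467 tested genes that have a window. Of the 27 NRF2 list members with a window 7 hold it (25.9%), as do 6 of 28 ATF4 and CHOP targets (21.4%) and 4 of 21 cholesterol genes (19.0%), lists that mostly fell. Among called genes with a window it lies in 14.9% of those that rose and 13.5% of those that fell, and with changes of at least 1 in 53 of 264 (20.1%) and 37 of 282 (13.1%). Ugdh, which fell, is among the 7. Of the 3 largest increases Procr has a window; Hmox1 and Angptl4 are named only. The windows of Procr, Gclm and Txnrd1 (the second of its 3 windows) are shown because these genes rose and their promoters carry the element, which is in capitals, as read 5′ to 3′ toward the start site. The match in Procr reads TGACTCAGC on the sense strand from 154 to 146 bases before the start; those in Gclm and Txnrd1 lie on the other strand, from 134 to 126 and from 92 to 84 bases before it.
Procr, chr2:155750967-155751216, plus strand: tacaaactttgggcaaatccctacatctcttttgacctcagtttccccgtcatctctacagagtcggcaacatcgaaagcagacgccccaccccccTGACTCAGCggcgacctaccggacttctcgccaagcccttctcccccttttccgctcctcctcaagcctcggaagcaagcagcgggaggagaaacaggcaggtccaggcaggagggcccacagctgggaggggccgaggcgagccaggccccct
Gclm, chr3:122245307-122245556, plus strand: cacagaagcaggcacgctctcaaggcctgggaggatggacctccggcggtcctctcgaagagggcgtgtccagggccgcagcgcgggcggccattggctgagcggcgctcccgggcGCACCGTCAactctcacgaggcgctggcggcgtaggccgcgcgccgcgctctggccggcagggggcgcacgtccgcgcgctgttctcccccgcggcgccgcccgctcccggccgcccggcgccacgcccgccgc
Txnrd1, chr10:82858956-82859205, plus strand: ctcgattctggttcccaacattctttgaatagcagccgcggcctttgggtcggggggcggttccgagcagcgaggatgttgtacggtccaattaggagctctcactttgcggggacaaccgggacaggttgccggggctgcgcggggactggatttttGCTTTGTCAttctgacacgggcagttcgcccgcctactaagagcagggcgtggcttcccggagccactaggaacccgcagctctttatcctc
A match is a string of letters, and binding was not measured.

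Of 28 tested genes of glutathione synthesis and conjugation 14 rose (50.0%, against 27.3% over all tested genes) and 6 fell (21.4%, against 29.0%), with a median of 0.41. The synthesis genes Gclm, Gclc (1.02) and Gss (0.71), glutathione reductase Gsr (0.92) and the cystine importer Slc7a11 rose; Slc7a11 measured 8.82, 8.4 and 7.23 CPM in the control libraries and 13.7, 14.2 and 18.3 CPM in the lean libraries (log2 fold change 0.92, SE 0.123, adjusted p = 2.4e-06), and its partner chain Slc3a2 was at -0.05 (adjusted p = 0.312). Among the transferases Gstp1, Gstm1 and Gsta4 rose by 0.88, 0.86 and 0.67, whereas the theta and zeta class genes Gstt1 and Gstz1 fell by 1.13 and 0.80. Gstp1 and Gstp2 are near-identical copies whose reads the counting may have split. Chac1, which degrades glutathione and is an ATF4 target, fell; it measured 8.02, 7.72 and 10.5 CPM in the control libraries and 2.86, 3.77 and 3.54 CPM in the lean libraries (log2 fold change -1.36, SE 0.143, adjusted p = 1.79e-08). Gpx4 fell by 0.21 (SE 0.0445, adjusted p = 0.00026) and Acsl4, which loads polyunsaturated fatty acids into phospholipid precursors, by 0.35. Over the 20 tested core ferroptosis genes 11 rose (55.0%) and 5 fell (25.0%, near the 29.0% of all tested genes). They included 2 low-abundance risers, Ptgs2, at 2, 7 and 3 counts in control and 16, 18 and 19 counts in lean libraries, and Gch1, which makes tetrahydrobiopterin (0.9 ± 0.274 to 2.19 ± 0.0997 CPM). The joint list of selenoproteins and selenium handling genes went mainly the other way from Txnrd1. Of its 25 tested members 13 fell and 6 rose, with Selenoo (-1.45), Selenop (-0.76) and Gpx1 (-0.64) among those that fell.

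Of 28 tested genes of iron and heme handling 14 rose (50.0%) and 9 fell (32.1%, beside 29.0% of all tested genes); 5 fell when lean replicate 1 or control replicate 3 was left out, and 5 when only the 2 compared groups were fitted. Fth1 and Ftl1, the ferritin chains, rose by 0.82 and 1.02; Tfrc, the transferrin receptor, measured 305, 322 and 305 CPM in the control libraries and 529, 506 and 462 CPM in the lean libraries (log2 fold change 0.69, SE 0.058, adjusted p = 8.1e-08); and Slc11a2, the divalent metal importer, rose by 0.44. Alas1, the first enzyme of heme synthesis, rose from 50.9 ± 3.78 to 150.1 ± 7.86 CPM (log2 fold change 1.56, SE 0.0711, adjusted p = 2.4e-11), the heme exporter gene Flvcr1 by 1.00 and Bach1, a heme-sensing repressor of Hmox1, by 0.61. Steap2, a metalloreductase, and Slc25a37, mitoferrin, fell by 0.44 and 0.39, and Lcn2, which binds siderophores, fell from 2.75 ± 0.507 to 0.608 ± 0.289 CPM.

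Plin2, the coat protein of lipid droplets, measured 51.4, 52.7 and 62.9 CPM in the control libraries and 157, 159 and 149 CPM in the lean libraries (log2 fold change 1.48, SE 0.0691, adjusted p = 2.56e-11). With Angptl4 it was among the largest rises in the PPAR and fatty acid oxidation list, where 17 of 35 tested members rose (48.6%) and 11 fell (31.4%, near the 29.0% of all tested genes; 7 fell without lean replicate 3). Slc25a20, the mitochondrial carnitine-acylcarnitine carrier, and Cpt1a, which joins fatty acids to carnitine, rose by 1.27 and 0.62, Ppard by 0.91 and the thioesterase Acot2 by 1.04, while the trifunctional protein subunits Hadha and Hadhb fell by 0.29 and 0.20 and the peroxisomal thiolase Acaa1a by 0.81. Pparg and Ppara had too few counts to be tested. The lipase Pnpla2, which starts triglyceride breakdown, rose by 0.85, and Lpin1, which makes diacylglycerol, fell by 1.39.

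In de novo lipogenesis 13 of 24 tested genes fell (54.2%) and 7 rose (29.2%, near the 27.3% of all tested genes), with a median of -0.24. Srebf1, the transcription factor SREBP1, measured 325, 320.1 and 321 CPM in the control libraries and 132, 131 and 129 CPM in the lean libraries (log2 fold change -1.30, SE 0.0599, adjusted p = 4.77e-11). The desaturases Scd1 and Scd2 fell from 277 ± 12.4 to 133 ± 11.3 CPM and from 1204 ± 40.8 to 612 ± 25.8 CPM, and Fasn, Acaca and Elovl6 by 0.25, 0.23 and 0.35. Me1, Acly and the mitochondrial citrate carrier Slc25a1, which supply NADPH and acetyl-CoA, were higher by 0.99, 0.35 and 0.56. Cholesterol genes fell more often than they rose, 18 against 4 of 31 tested, with a median of -0.32. Mvk, mevalonate kinase, measured 40.1, 39.6 and 45.3 CPM in the control libraries and 22.8, 22.2 and 20.8 CPM in the lean libraries (log2 fold change -0.93, SE 0.0659, adjusted p = 2.8e-11); Insig1, Fdps and Srebf2 fell by 1.06, 0.74 and 0.50. Sqle, squalene epoxidase, did not pass the test (-0.08, adjusted p = 0.209), and Hsd17b7 rose by 1.45.

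Enzymes that make or degrade oxylipins and lipid aldehydes were mostly higher. Of 23 tested oxylipin genes 14 rose and 2 fell (median 0.47), among them the phospholipase Pla2g4a, which releases arachidonate (9.25 ± 1.59 to 21.8 ± 0.266 CPM), the prostaglandin synthase Ptges (0.60), the prostaglandin transporter Slco2a1 (0.84), the epoxide hydrolase Ephx1 (0.77) and Ptgr1, which inactivates prostaglandins and lipid enals (0.81). Alox15, Alox12 and Alox5 had too few counts to be tested. For the clearance of lipid aldehydes 13 of 18 tested genes rose and 3 fell (median 0.49), with Akr1b3, aldose reductase, going from 275 ± 2.18 to 541 ± 105 CPM.

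ATF4 and CHOP targets fell as a group apart from a few. Of 32 tested members 23 fell and 4 rose (median -0.42). Atf4 measured 402, 414 and 417 CPM in the control libraries and 266, 259.7 and 278 CPM in the lean libraries (log2 fold change -0.62, SE 0.0365, adjusted p = 1.48e-12). The mitochondrial folate enzyme Aldh1l2 fell from 152 ± 9.65 to 61.4 ± 5.02 CPM, the stress gene Sesn2 by 0.98, Herpud1 from 118 ± 2.11 to 53.3 ± 4.66 CPM, the proline synthesis genes Aldh18a1 and Pycr1 by 0.91 and 0.68, and the serine pathway genes Shmt2, Psat1 and Phgdh by 0.60, 0.49 and 0.18. Atf3 and Ppp1r15a, which ends the translational arm of the stress response, rose by 1.79 and 0.80, as did Slc7a11, an NRF2 target as well; Ddit3, which encodes CHOP, was at 0.02 (adjusted p = 0.9). Aminoacyl-tRNA synthetase genes, also driven by ATF4, fell in 11 of 20 and rose in 5, from Cars at -0.77 to Rars at 0.33. The C/EBP-ATF response element, searched as TGATGNAAT on both strands, lies in 3 of the 28 list members with a promoter window (10.7%) and in 0.454% of tested genes. The windows of Pycr1 and Nupr1 are shown because both genes fell (-0.68 and -0.49) and carry the element, in capitals; Fgf21, the other member with a match, was called higher (1.35, adjusted p = 0.0157) at 19 counts or fewer in each of the 6 libraries, is not shown, and missed the threshold without control replicate 1 or lean replicate 1 (adjusted p = 0.0906 and 0.0942) and with the DESeq2 Wald test (0.114).
Pycr1, chr11:120643749-120643998, minus strand: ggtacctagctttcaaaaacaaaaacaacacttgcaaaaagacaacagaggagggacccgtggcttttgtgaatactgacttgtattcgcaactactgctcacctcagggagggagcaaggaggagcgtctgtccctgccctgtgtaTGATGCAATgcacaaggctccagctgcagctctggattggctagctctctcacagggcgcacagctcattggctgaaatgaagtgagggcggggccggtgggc
Nupr1, chr7:126625471-126625720, minus strand: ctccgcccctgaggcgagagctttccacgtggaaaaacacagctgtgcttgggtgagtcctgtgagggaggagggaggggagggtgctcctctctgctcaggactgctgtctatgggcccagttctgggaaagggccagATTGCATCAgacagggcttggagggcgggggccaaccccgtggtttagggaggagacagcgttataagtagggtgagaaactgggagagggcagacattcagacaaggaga

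**Figure D3:**
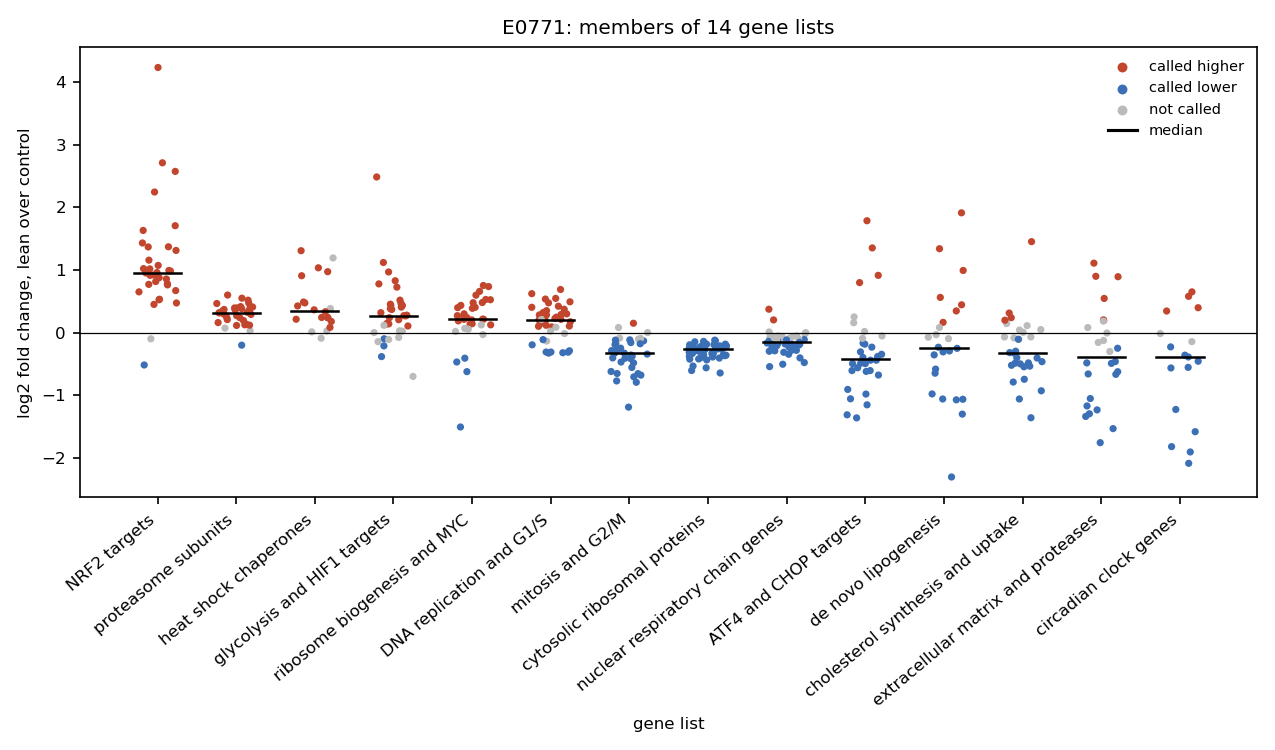
Log2 fold change of lean over control (vertical axis) for each tested member of 14 gene lists (horizontal axis), red where called higher, blue where called lower and grey where not called, with a bar at the list median. The NRF2 list has its median at 0.96, and all 62 points of the cytosolic ribosomal protein list are blue.

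Protein quality control genes were raised in the cytosol. Of 20 tested heat shock chaperone genes 15 rose (median 0.35) and the other 5 did not pass the test; 1 was called lower without lean replicate 3. Hsp90aa1 measured 1334, 1382 and 1348 CPM in the control libraries and 2724, 2546 and 2713 CPM in the lean libraries (log2 fold change 0.97, SE 0.0413, adjusted p = 3.88e-14), Hsph1 rose from 404 ± 14.3 to 829 ± 136 CPM and Cryab, a small heat shock protein, by 0.91, while the constitutive Hspa8 was at 0.01 (adjusted p = 0.803). Of 34 tested proteasome genes 31 rose (median 0.32). The changes were small and even: Psme4, Psmd12 and Psmc6 rose by 0.60, 0.55 and 0.52, and the catalytic Psmb5 by 0.12; Nfe2l1, a transcription factor of proteasome genes that was counted with them, fell by 0.20. Endoplasmic reticulum genes were mixed, 9 higher (33.3%) and 11 lower (40.7%) of 27, beside 27.3% and 29.0% of all tested genes, with Hspa5 at -0.12 and Xbp1 at -0.79. Lysosome and autophagy genes rose in 24 (53.3%) and fell in 10 (22.2%) of 45 tested (median 0.13). Sqstm1 rose by 1.31, Gabarapl1 by 0.69 and the proton pump subunits Atp6v1a and Atp6v1c1 by 0.48 and 0.55; Tfeb, the transcription factor of the list, fell by 0.66.

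Genes for making ribosomes and genes for ribosomal proteins moved apart. Of 33 tested genes of ribosome biogenesis and the MYC network 24 rose and 4 fell (median 0.22). Rrp9, Nop14, Nop16 and Nop2, which process ribosomal RNA, rose by 0.75, 0.74, 0.66 and 0.60, Odc1 by 0.53 and Myc by 0.24. The MYC antagonists Mxd4, Mxd1, Mxd3 and Mnt were the 4 that fell; Mxd4 measured 36.7, 34.2 and 33.1 CPM in the control libraries and 12, 12.7 and 12 CPM in the lean libraries (log2 fold change -1.50, SE 0.0706, adjusted p = 4.61e-14). All 62 tested cytosolic ribosomal protein genes fell, by a median of 0.27 and within a range of -0.64 for Rps20 to -0.12 for Rps24. Nuclear genes of the respiratory chain fell in 35 and rose in 2 of 51 tested (median -0.15), with Ndufa6 (-0.54) and Ndufv1 (-0.50) lowest and Cycs, cytochrome c, highest (0.38); 23 fell when control replicate 3 was left out. Of the 13 mitochondrially encoded protein genes 7 fell (median -0.39). mt-Co1 measured 7847, 7388 and 6123 CPM in the control libraries and 4801, 4898 and 5182 CPM in the lean libraries; mitochondrial transcripts were 1.6% to 2.06% of counts in control and 1.32% to 1.46% in lean libraries, and the part of this share in the change of single genes was not tested. Reads of mitochondrial genes can also match nuclear copies.

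Cell cycle genes differed by phase. Of 40 tested genes of DNA replication and the G1/S transition 27 rose and 8 fell (median 0.20): the primase gene Prim1 rose by 0.62, Pcna, the sliding clamp of DNA polymerase, by 0.49 and cyclin E1, Ccne1, by 0.48, and Cdk4 fell by 0.33. Of 36 tested genes of mitosis and G2/M 30 fell and 1 rose (median -0.33). Ccnb2, cyclin B2, measured 122, 131 and 139.7 CPM in the control libraries and 62.3, 62.2 and 48.2 CPM in the lean libraries (log2 fold change -1.19, SE 0.104, adjusted p = 1.15e-05), and Mki67, a proliferation marker, measured 275, 256 and 239 CPM in the control libraries and 161, 170.3 and 158 CPM in the lean libraries (log2 fold change -0.65, SE 0.0668, adjusted p = 2.16e-06). Nusap1, Pttg1, Cenpa and Cdc20 fell by 0.79, 0.77, 0.70 and 0.55, while Cdk1 was at 0.08 (adjusted p = 0.0798). The single riser, Bub1 (0.15, adjusted p = 0.0164), missed the threshold without control replicate 1, lean replicate 1 or lean replicate 2 (adjusted p = 0.0587, 0.11 and 0.081), and 2 members rose without control replicate 3 or lean replicate 3. Among p53 targets 16 of 28 rose and 5 fell (median 0.25); Cdkn1a, which encodes the cell cycle inhibitor p21, measured 27.7, 26.6 and 27.4 CPM in the control libraries and 67.6, 65.8 and 73.2 CPM in the lean libraries (log2 fold change 1.34, SE 0.0687, adjusted p = 3.31e-13). Pmaip1, the pro-apoptotic NOXA, and Tigar rose by 1.26 and 0.77, and the pro-apoptotic genes Bbc3 and Bmf fell by 0.53 and 0.94. Bulk RNA does not separate a change in the share of cells in a phase from a change of RNA per cell.

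Glycolysis and HIF1 target genes rose in 24 and fell in 3 of 35 tested (median 0.27); 1 fell without control replicate 1 or control replicate 3. Adm led, with 17.2, 20.5 and 20.1 CPM in the control libraries and 96, 101 and 127 CPM in the lean libraries (log2 fold change 2.49, SE 0.186, adjusted p = 2.74e-05). The glucose transporter Slc2a1 rose from 139 ± 6.54 to 273 ± 10.1 CPM and the lactate exporter Slc16a3 from 287 ± 13.6 to 509 ± 33.8 CPM, Hk2 by 0.47 and Hif1a by 0.44. Vegfa fell by 0.21, and Gapdh and Pgk1 did not pass the test (0.02 and 0.03).

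Signalling lists held called members in both directions, as 27.3% and 29.0% of all tested genes were called higher and lower. Among the EGF family ligands Btc rose from 0.779 ± 0.394 to 4.09 ± 0.764 CPM, Areg from 0.948 ± 0.154 to 4.79 ± 0.809 CPM, Hbegf by 1.05 and Ereg by 0.98, whereas the receptor gene Erbb2 fell by 0.37 and Egfr was at 0.01 (adjusted p = 0.968). Of 26 tested ERK output genes 14 rose (53.8%) and 9 fell (34.6%). Fosl1 rose from 99.1 ± 3.11 to 214 ± 28.2 CPM and Ier3 from 89.4 ± 9.18 to 234 ± 44.3 CPM; Dusp6, Etv5, Etv4 and Spry4, feedback and ETS genes of the same pathway, fell by 1.29, 0.83, 0.53 and 0.41. SRF and YAP targets rose in 11 (40.7%) and fell in 5 (18.5%) of 27, 59.3% called beside 56.3% over all genes. Ccn1 rose by 1.47 and Acta2, smooth muscle actin, by 0.65, while Ccn2 was at -0.32 (adjusted p = 0.0776). Insulin and IGF genes fell in 8 (66.7%) and rose in 1 of 12, with Ccng2, a FOXO target, at -1.52, Igf2r at -0.93 and Igfbp4 at -0.81. Axin2, a Wnt target, fell by 0.82 and Tcf7 rose by 1.14.

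Matrix genes fell in 14 and rose in 6 of 26 tested (median -0.38). Col1a1 measured 640.2, 727 and 694 CPM in the control libraries and 202, 219 and 189.5 CPM in the lean libraries (log2 fold change -1.75, SE 0.148, adjusted p = 6.27e-05), with every lean library far below every control library. The type VI collagen genes Col6a1 and Col6a2 fell from 1551 ± 22.7 to 614 ± 56.5 CPM and from 773 ± 9.81 to 329 ± 25.2 CPM, Col3a1 by 1.53, Col5a1 by 0.66 and Sparc by 0.48, whereas Col4a1, of basement membrane, was at 0.00 (adjusted p = 0.925). The proteases Adamts1 and Adamts4 rose by 1.11 and 0.90. Of 16 mesenchymal genes 8 fell (50.0%) and 5 rose (31.2%), beside 29.0% and 27.3% of all tested genes. Vim fell by 0.59, S100a4 by 0.78, Tgfbi from 103 ± 8.44 to 46.4 ± 4.01 CPM and Prrx1 by 0.95, and Itgb3 and Itga5 rose by 0.76 and 0.34. Krt14, a basal keratin, went from 3, 5 and 3 counts in the control to 18, 41 and 52 counts in the lean libraries, still at a low level, and Krt8 did not pass the test (-0.06, adjusted p = 0.147).

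Clock output genes fell. Of 17 tested clock genes 11 fell and 4 rose (median -0.39). Dbp measured 77.4, 76.9 and 76.5 CPM in the control libraries and 22.1, 22.4 and 17.3 CPM in the lean libraries (log2 fold change -1.90, SE 0.0758, adjusted p = 2.89e-13), and Per3 measured 41, 35.8 and 35.4 CPM in the control libraries and 9.97, 12 and 9.96 CPM in the lean libraries (log2 fold change -1.82, SE 0.0817, adjusted p = 3.01e-14). Per2, Tef, Nr1d2 and Nr1d1 fell by 1.22, 0.55, 0.45 and 0.39, Per1 and Nfil3 rose by 0.58 and 0.65, and the core activator Arntl was at -0.01 (adjusted p = 0.857). The labels give no clock time of collection for the libraries.

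Immune genes formed no single direction. Interferon-stimulated genes fell in 12 and rose in 5 of 34 tested, 50% called against 56.3% over all genes; Ifit1 rose from 1.31 ± 0.321 to 2.99 ± 0.126 CPM and Oasl1 by 1.21, and Ddx58, an RNA sensor, fell by 1.05. Of 22 tested NF-kB genes 8 rose (36.4%) and 7 fell (31.8%), beside 27.3% and 29.0% of all tested genes. The chemokine genes Ccl2 and Ccl7 rose from 9.18 ± 0.548 to 23.5 ± 5.22 CPM and from 2.68 ± 0.476 to 8.16 ± 3.22 CPM, and Icam1 fell from 1.1 ± 0.183 to 0.243 ± 0.0412 CPM.

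Among the 3768 genes called higher 24 had at most 3 counts in each control library. Among the 4002 genes called lower 7 had at most 3 counts in each lean library. Such genes passed the filter on low counts through a group where they were high, so the direction of their calls was set by the filter and their counts are given as a description. Sstr5, a somatostatin receptor, had 2, 0 and 1 counts in control and 59, 59 and 117 counts in lean libraries. Psg29, a pregnancy-specific glycoprotein, had 0 counts in all control libraries and 59, 39 and 52 counts in the lean ones. Ighg2c, an immunoglobulin heavy chain gene, had 1, 2 and 1 against 56, 55 and 59 counts, beside the lymphocyte marker sum of at most 0.716 CPM given above; the source of these reads was not tested. In the other direction Selenbp2 had 13, 15 and 13 counts in control and 3, 0 and 1 in lean libraries, and Kctd15 had 16, 14 and 11 against 2, 2 and 1.

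**Figure D4:**
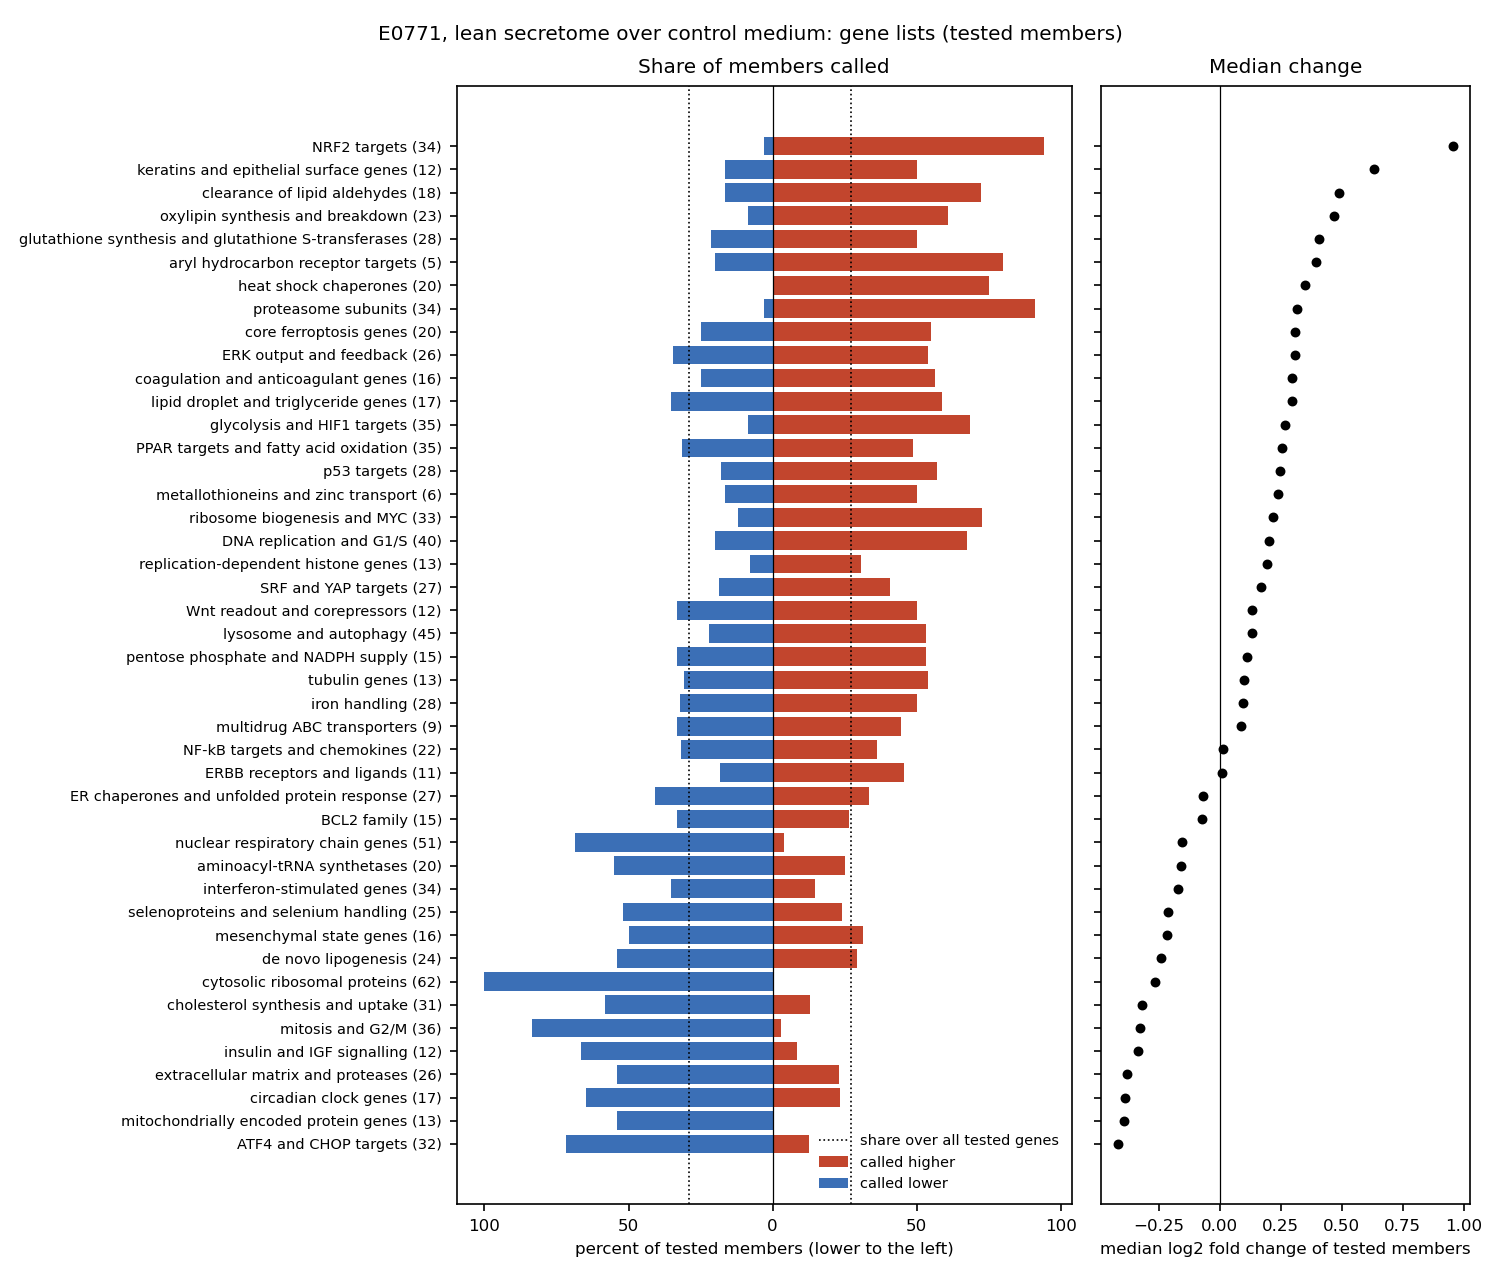
Left, percent of the tested members of each of 44 gene lists called higher (red, to the right) or lower (blue, to the left) with lean secretome, with dotted lines at the shares over all tested genes, 27.3% and 29.0%; right, the median log2 fold change of the tested members. Numbers in brackets are tested members; lists run from ATF4 and CHOP targets (median -0.42) at the bottom to NRF2 targets (0.96) at the top.

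The obese secretome was measured against the same control libraries, so its values are set beside those of the lean secretome and no agreement between them is read. It changed 360 genes (2.61%), 167 higher (1.21%) and 193 lower (1.40%), and 192 without obese replicate 1; lean and obese libraries differed in 7275 genes (52.7%). Hmox1 measured 253, 112 and 139 CPM with obese secretome (log2 fold change over control 0.93, adjusted p = 0.304), and obese replicate 1 was also the highest of its group for Nqo1, Srxn1, Procr and Gclm. Angptl4 was at 0.50 over control (adjusted p = 0.243) and Thrsp at 0.33 (adjusted p = 0.177). Ftl1 rose with obese secretome (0.53, adjusted p = 0.0116), and Tle2 fell (-0.44, adjusted p = 0.0154). Lysosome and autophagy genes rose in 24 of 45 with obese secretome, with a median of 0.18 beside 0.13 with lean. Mitochondrially encoded genes had a median of -0.58 with obese and -0.39 with lean secretome, and the mitochondrial share of counts was 1.19% to 1.41% in the obese libraries. NRF2 targets had medians of 0.29 with obese and 0.96 with lean secretome.

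The same contrast was made in NMuMG cells, where 5731 of 15014 tested genes were called (38.2%), 2864 higher and 2867 lower (19.1% each). The growth media of the lines differ in insulin and glucose, so the line and its medium cannot be told apart. The difference of the lean effect between the lines, tested as an interaction over all 18 mouse libraries, was called for 5710 of 16529 genes (34.5%), 3210 more positive in E0771 (19.4%) and 2500 less (15.1%). Of 12433 genes tested in both lines, 7208 were called in E0771, 4783 in NMuMG and 3260 in both. The shared calls are 45.2% of the E0771 calls and 68.2% of the NMuMG calls among them. Over all genes tested in each line, 38.2% were called in NMuMG and 56.3% in E0771. Of the 3260 shared calls, 1127 rose and 1261 fell in both, and 872 went in opposite directions with the difference itself called. NRF2 targets rose in 34 of 34 in NMuMG (median 1.27), and in E0771 the effect was more positive for 9 and less positive for 10 of them. Hmox1 rose by 4.23 in E0771 and 2.07 in NMuMG (difference 2.19, SE 0.424, adjusted p = 0.00118). Slc7a11 rose less in E0771: it measured 11.7, 12.9 and 13 CPM in control and 131, 115 and 136 CPM in lean libraries of NMuMG, a log2 fold change of 3.35 beside 0.92 (difference -2.41, SE 0.464, adjusted p = 0.00115).

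Several gene groups separated the lines. Over all genes tested for the difference, 19.4% were called more positive in E0771 and 15.1% less positive. In NMuMG 19.1% of tested genes were called higher and 19.1% lower. Heat shock chaperones had a more positive effect in E0771 in 17 of the 20 tested there (median in NMuMG -0.01), ribosome biogenesis genes in 24 of 33 (0.02) and glycolysis and HIF1 targets in 22 of 35 (-0.02). G1/S genes, of which 27 rose in E0771, fell in 20 and rose in 6 of 40 in NMuMG, and the difference was called more positive in E0771 for 31. Mitotic genes mostly fell in both lines, in 30 of 36 in E0771 and in 36 of 36 in NMuMG (median -0.69). The interaction test called a more positive effect in E0771 for 28 of them. ATF4 and CHOP targets had a less positive effect in E0771 in 21 of 32 (NMuMG median -0.11). Adamts1 measured 46.9, 45.3 and 45.4 CPM in control and 7.13, 8.46 and 7.39 CPM in lean libraries of NMuMG, a fall of 2.58, where E0771 rose by 1.11 (difference 3.72, SE 0.238, adjusted p = 2.65e-08). Acta2 likewise fell by 2.31 in NMuMG and rose by 0.65 in E0771 (difference 2.99, adjusted p = 8.83e-21), and Selenbp1 rose by 0.49 in NMuMG and fell by 1.98 in E0771 (difference -2.44, adjusted p = 4.39e-08). Col1a1 was at -0.91 in NMuMG and -1.75 in E0771, and this difference did not pass the test (-0.82, SE 0.331, adjusted p = 0.0768).

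**Figure D5:**
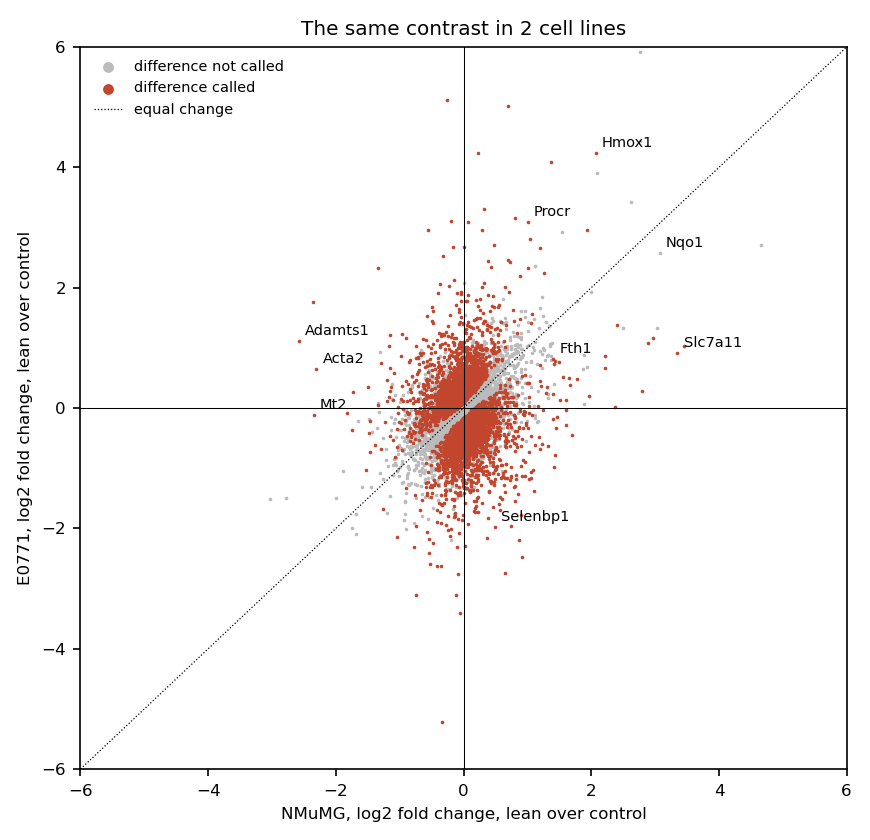
Log2 fold change of lean over control in E0771 (vertical axis) against that in NMuMG (horizontal axis) for the 12433 genes tested in both lines; red points have a called difference between the lines and the dotted line marks equal change. Hmox1 (4.23 in E0771, 2.07 in NMuMG) lies above the dotted line and Slc7a11 (0.92 and 3.35) below it.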

How the data were processed

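Poly(A) RNA was sequenced with a directional kit as paired 150 bp reads, and the authors deposited a table of raw counts per gene for the mouse libraries; reads were handled with cutadapt 1.16, STAR 2.7.9a and featureCounts 1.6.3, with GRCm39 as the build, per the submitters' processing notes. The strand setting of the counting is not given in the sources used here, so overlapping and antisense genes are uncertain. Of 56980 gene IDs, 52073 matched a symbol in the name table.

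From these counts, genes were filtered with filterByExpr, scaled with TMM and tested with edgeR 4.0.16 (glmQLFit and glmQLFTest, robust, R 4.3.3) in the 9 E0771 libraries of all 3 media, which share one estimate of the spread; NMuMG was fitted likewise and the difference as an interaction over 18 mouse libraries. The script was tested on simulated data. Genes with a Benjamini-Hochberg adjusted p under 0.05 were called.

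The gene lists and the rule for named genes were chosen with earlier results of these data known. The rule took the 10 largest increases and decreases with mean log2 CPM of at least 2 and no overlap, the 3 largest changes each way in every list, the 5 largest CPM gains and losses, genes at 3 counts or fewer in one group, and the 5 largest differences between lines each way with mean log2 CPM of at least 2 in both; other list members, and the printed promoters other than Procr, were named after their values were seen. Some genes that the rule takes are not reported here. Alternatives were other filters, scalings and tests (DESeq2 1.42.0), a replicate block and leaving out libraries. Residuals of libraries with the same replicate number had correlations of -0.094, -0.013 and -0.059.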

Additional observations from a re-analysis of the deposited data

Results flagged for a closer look

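The effect of lean secretome over control medium differed between E0771 and NMuMG cells in 5710 genes by the interaction test (edgeR quasi-likelihood, adjusted p under 0.05). Where both lines had average log2 CPM values of 2 or more, the 5 largest differences toward E0771 were those of Adamts1 (3.72 on the log2 scale, E0771 minus NMuMG), Acta2 (2.99), Mt2 (2.26), Hmox1 (2.19) and Procr (2.11). Mt2, a metallothionein that binds zinc, measured 78.4, 83.4 and 81.5 CPM in control and 14.9, 17.5 and 15.4 CPM in lean libraries of NMuMG, and did not pass the test in E0771 (-0.11). Large differences toward NMuMG, under the same limit, were those of Selenbp1 (-2.44), Slc7a11 (-2.41), Gm13387 (-2.19) and 3110039I08Rik (-2.12). The part of the insulin and glucose in the NMuMG medium in these differences was not tested.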

How the results depend on the processing

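For lean over control in E0771, 7709 genes were called with no filter other than a total of at least 1 count, 7815 with DESeq2 size factors, 7773 with upper quartile factors, 6974 with the DESeq2 Wald test and 7574 when only the compared groups were fitted; leaving out 1 of the 6 compared libraries gave 7123 to 7461, and leaving out obese replicate 1 gave 7768. With the replicate block 7636 were called in E0771, 5652 in NMuMG and 5554 for the difference; the correlations of same-numbered libraries give no sign of pairing. Leaving out 1 control or lean library gave 4779 to 5259 genes in NMuMG and 5199 to 5559 for the difference. The obese over control count fell from 360 to 192 without obese replicate 1, an alternative chosen after seeing the data; the cause was not tested. Of 257 named genes, 241 kept their direction and side of the threshold under every alternative run, and 16 lost or gained a call, Bub1 among them. None of the 257 reversed. List medians were less stable. Of 44 medians, 24 moved under at least 1 alternative by more than the SD of that median over the 3 lean libraries, 14 of them without control replicate 3. Of 88 list counts of called members, 9 moved by more than the set limit. Hmox1 ranged from 3.96 to 4.37 on the log2 scale when 1 of the 6 compared libraries was left out. Depth limits the genes near 3 counts.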

Other observations

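Tubulin genes, which no comparison above describes, rose in 7 (53.8%) and fell in 4 (30.8%) of 13 tested in E0771 with lean secretome (median 0.10). Over all tested genes 27.3% rose and 29.0% fell. In NMuMG tubulin genes fell in 8 of 12 (median -0.26), beside 19.1% of all genes tested there. The difference was more positive in E0771 for 9 tubulin genes, beside 19.4% of all genes. Of 14 genes in the list of aryl hydrocarbon receptor targets, 5 were tested in E0771, where 4 rose (80.0%) and 1 fell (20.0%). The largest risers, Aldh3a1 (2.71) and Nqo1 (2.58), are also in the NRF2 list, and the gene that fell was Arnt (-0.14). Genes of coagulation and its inhibition, the list that holds Procr, rose in 9 (56.2%) and fell in 4 (25.0%) of 16.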
